A study of Homo sapiens with 4 samples.

Results

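The subunit genes of the mitochondrial oxidative phosphorylation complexes were examined in TE-1 cells, an established line of esophageal squamous cell carcinoma, after silencing of FOXM1, a forkhead transcription factor that drives genes of cell division. Members were chosen by gene symbol, with earlier results of these data known. They are nuclear genes of complex I (NDUFA, NDUFB, NDUFC, NDUFS and NDUFV), complex II (SDHA to SDHD) and complex III (the UQCR genes and CYC1). Those of complex IV (the COX5 to COX8 genes) and complex V (the ATP5 genes) complete the list. Each needed a probe set that carries no other symbol. This gave 61 of 14232 genes with such a probe set, of which 60 encode proteins and UQCRBP1 is a pseudogene. There were 26 genes of complex I, 3 of complex II, 6 of complex III, 12 of complex IV and 13 of complex V. NDUFAB1, COX4I1 and COX4I2, whose symbols are built differently, were measured but are not among the 61. Their log2 differences after FOXM1 silencing were 0.03, 0.04 and 0.21. Both groups were TE-1 cells transfected with Lipofectamine 2000, one with siRNA against FOXM1 (TE-1-siFOXM1, 2 arrays) and the other with a scrambled siRNA (TE-1-SCR, 2 arrays). All cells come from 1 line. The sources do not say that the replicates came from separate cultures, so the p-values reflect only the variation among 4 arrays, and part of it may be technical. In bulk RNA a smaller number of cells of one kind and less RNA per cell cannot be told apart.
Oxidative phosphorylation couples the oxidation of NADH and succinate to the synthesis of ATP at the inner mitochondrial membrane. Complexes I and II pass electrons to ubiquinone, complex III passes them to cytochrome c and complex IV passes them to oxygen, while complexes I, III and IV pump protons and complex V, the ATP synthase, uses their return to make ATP. Most subunits are encoded in the nucleus, and many of their promoters are known to bind NRF1, ETS factors such as GABP, and YY1. No gene of the mitochondrial genome had a probe set under its own symbol, so those subunits were not analysed here.
FOXM1 itself was 3.95-fold lower in TE-1-siFOXM1 cells (log2 expression 8.28 and 8.06 against 10.55 and 9.75). Values are log2 expression after robust multi-array average (RMA), with array medians between 7.54 and 7.63. Among epithelial markers, 7 of 8 measured genes reached the overall median level (7.58), including CDH1, EPCAM and SFN, while KRT13 lay below it, and KRT5 and TP63 were not analysed here. Of 13 measured markers of immune, endothelial, stromal and muscle cells, 2 lay above that level, CD68 and COL1A1, and PTPRC had values between 3.50 and 3.74.

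No subunit gene of oxidative phosphorylation differed significantly after FOXM1 silencing, and most differences were small. The median log2 difference (TE-1-siFOXM1 minus TE-1-SCR) was 0.01, with quartiles of -0.05 and 0.12, and the median of all named genes was 0.00. Differences were above 0 in 36 genes and below 0 in 25, against 7258 and 6974 of all named genes. Of the 61, 57 lay within 0.3 of 0 on the log2 scale, as did 13123 of the 14232 named genes, a similar share. At least 1.5-fold higher, the criterion of the study, was 1 gene, ATP5PD of complex V, and 0 were at least 1.5-fold lower, where the background over all named genes was 0.562% higher and 0.45% lower.
No subunit gene passed an adjusted p of 0.05 in limma (Benjamini-Hochberg over the 22011 probe sets), and 0% of all probe sets did. FOXM1, the silenced gene, did not pass either, so the lack of calls does not show that a gene was unchanged. None of the subunit genes had an unadjusted p under 0.05 from limma, a mark that 3.09% of all probe sets and 1.83% of named genes reached. Groups without overlap between their arrays were found for 2 genes higher in TE-1-siFOXM1 cells, COX6A2 and ATP5PF, and for 1 lower, SDHA, whereas 13.5% and 13.8% of all named genes were of these kinds. An exact permutation test of 2 arrays against 2 cannot give a two-sided p below 0.333. The median of the subunit genes depended on which arrays were compared, from -0.14 without SCR replicate 2 to 0.22 without SCR replicate 1. Without siFOXM1 replicate 2 the differences of ATP5PD, ATP5MJ, COX7B and SDHD were 0.79, 0.78, 0.73 and 0.84. Without SCR replicate 1 those of ATP5MJ, COX7B, NDUFA1 and SDHD were 0.68, 0.60, 0.59 and 0.96. The difference of COX7A2 was -0.59 without SCR replicate 2. All of these pass 1.5-fold. Each rests on a group of 1 array, and the share of all named genes past 1.5-fold was not computed for such comparisons.

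**Figure D1:**
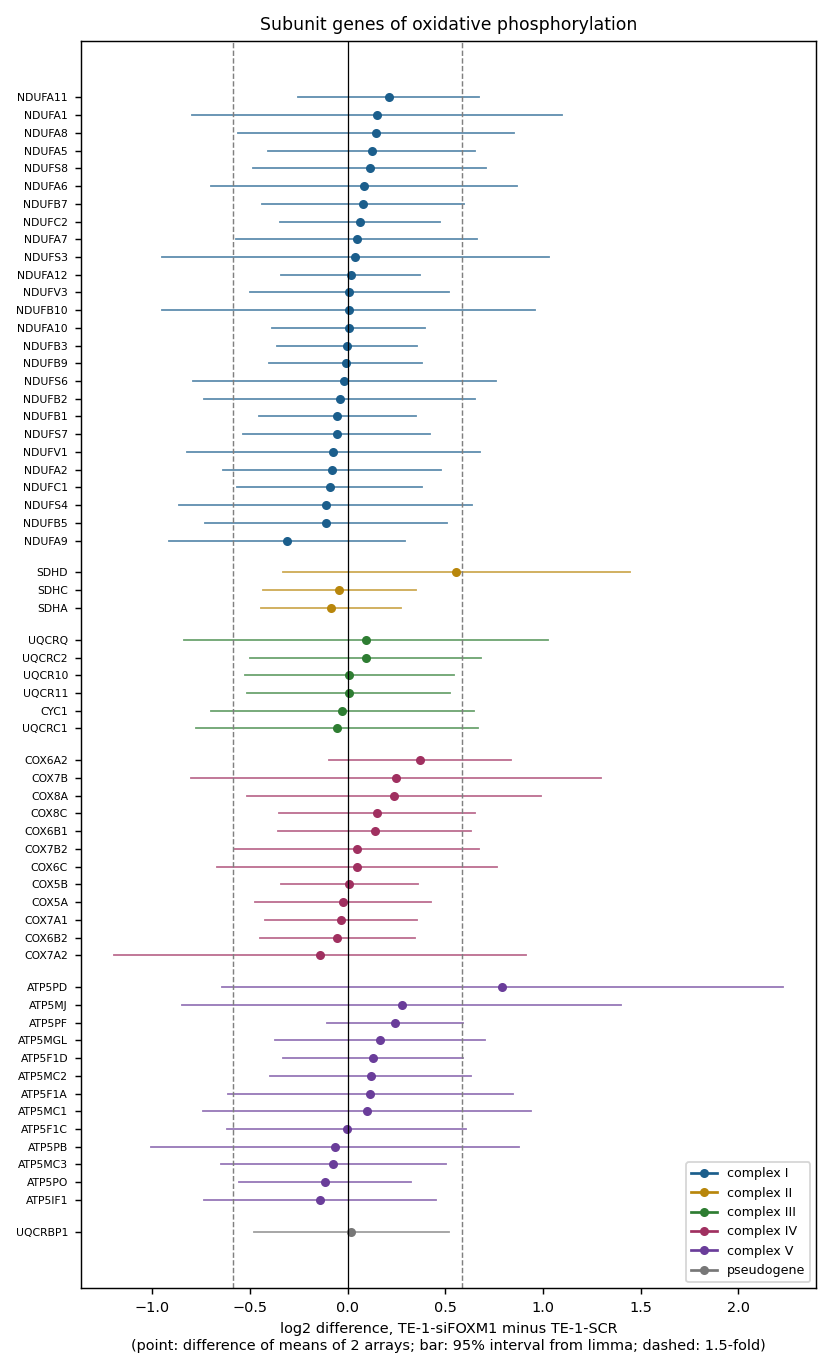
Log2 difference (TE-1-siFOXM1 minus TE-1-SCR) of each of the 61 subunit genes, grouped by complex, with points for the difference of the means of 2 arrays and bars for the 95% interval from limma. Dashed lines mark 1.5-fold, which ATP5PD alone exceeds (0.79), and every interval includes 0.

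ATP5PD, a subunit of the peripheral stalk that holds the ATP synthase head against rotation, is the gene that the study lists under its older symbol ATP5H. It read 8.09 and 8.10 on the siFOXM1 arrays and 6.46 and 8.14 on the SCR arrays, in log2 expression. SCR replicate 1 was the low array, 1.65 below the mean of the other 3, which spanned 0.05. The difference of the group means was 0.79, or 1.73-fold (standard error 0.55, 95% interval -0.64 to 2.23, adjusted p = 1 from limma), and the groups overlapped. Without SCR replicate 1 the difference was -0.05. Of all 14232 named genes, 7, with ATP5PD among them, lay at least as far below SCR replicate 2 in SCR replicate 1 (-1.68), and the lowest such value in another subunit gene was -0.28.
SDHD, which anchors succinate dehydrogenase in the membrane and helps to bind ubiquinone, had the next largest difference. It had values of 5.87 and 5.30 in TE-1-siFOXM1 cells and of 5.43 and 4.63 in TE-1-SCR cells, a difference of 0.56 (1.47-fold, standard error 0.34, 95% interval -0.33 to 1.44, adjusted p = 1 from limma). Each group held 1 high and 1 low array, and the groups overlapped. Its mean was under the overall median level, and the difference was 0.96 without SCR replicate 1 and 0.15 without SCR replicate 2.
ATP5PF, another subunit of the peripheral stalk, was singled out after its values were seen because its groups did not overlap. It had values of 8.57 and 8.61 in TE-1-siFOXM1 cells and 8.38 and 8.31 in TE-1-SCR cells, with a difference of 0.24 (95% interval -0.11 to 0.59, adjusted p = 1 from limma). At the other end, NDUFA9, an accessory subunit of complex I, had the largest decrease. Its values were 10.38 and 10.12 against 10.83 and 10.29, a difference of -0.31 (1.24-fold, 95% interval -0.91 to 0.30, adjusted p = 1 from limma), and siFOXM1 replicate 1 lay above SCR replicate 2.

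**Figure D2:**
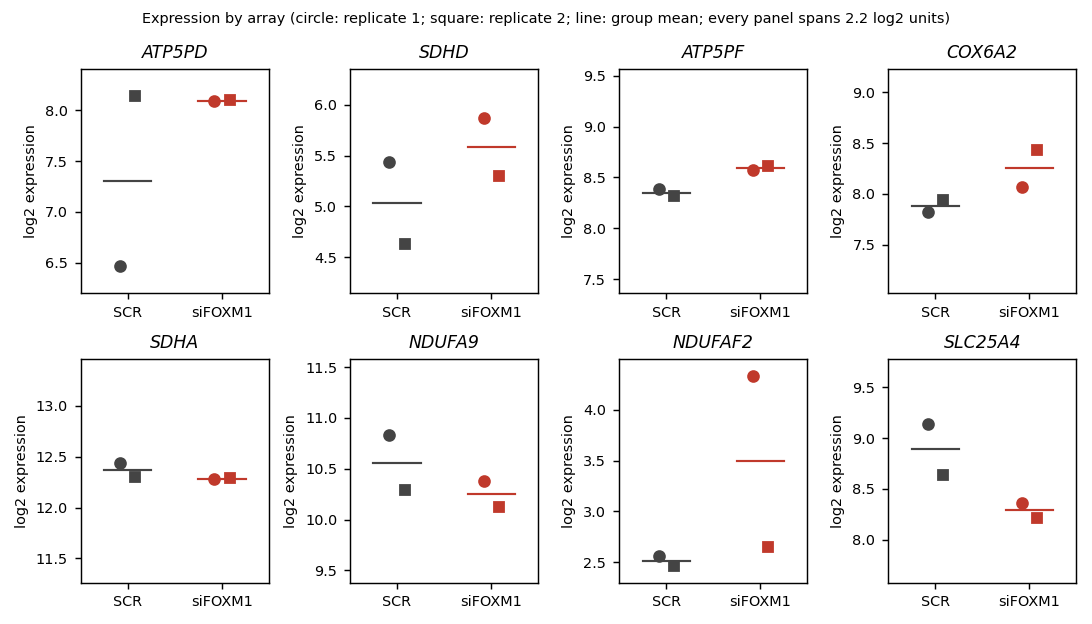
Log2 expression on each array for 6 subunit genes, the assembly factor NDUFAF2 and the carrier SLC25A4, with circles for replicate 1, squares for replicate 2 and lines for the group means. A single array sets the difference of ATP5PD (6.46 in SCR replicate 1) and of NDUFAF2 (4.33 in siFOXM1 replicate 1). Both arrays of SLC25A4 are lower in TE-1-siFOXM1 cells, as in 13.8% of all named genes.

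The promoters of these 4 genes are shown as those of the 2 largest increases, the largest decrease and a gene whose groups did not overlap, and because they hold different sets of the motifs known from this gene class. The sequences are the 250 bases before the RefSeq start of each gene in the build GRCh38.p14, 5′ to 3′ on the strand of the gene, with matches to the motifs searched in capitals. They lie at chr17:75046970-75047219 (minus strand) for ATP5PD, chr11:112086623-112086872 (plus strand) for SDHD, chr21:25735055-25735304 (minus strand) for ATP5PF and chr12:4648864-4649113 (plus strand) for NDUFA9.
ATP5PD: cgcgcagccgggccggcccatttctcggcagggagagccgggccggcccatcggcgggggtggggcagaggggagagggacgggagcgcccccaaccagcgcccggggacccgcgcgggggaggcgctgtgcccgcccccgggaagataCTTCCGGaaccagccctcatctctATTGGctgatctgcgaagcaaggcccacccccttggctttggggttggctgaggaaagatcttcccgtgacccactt
SDHD: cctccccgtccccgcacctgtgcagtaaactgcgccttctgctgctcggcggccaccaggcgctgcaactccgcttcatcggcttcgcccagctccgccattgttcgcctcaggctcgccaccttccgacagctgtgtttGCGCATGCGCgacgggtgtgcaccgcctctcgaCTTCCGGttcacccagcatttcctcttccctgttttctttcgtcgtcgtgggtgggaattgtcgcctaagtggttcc
ATP5PF: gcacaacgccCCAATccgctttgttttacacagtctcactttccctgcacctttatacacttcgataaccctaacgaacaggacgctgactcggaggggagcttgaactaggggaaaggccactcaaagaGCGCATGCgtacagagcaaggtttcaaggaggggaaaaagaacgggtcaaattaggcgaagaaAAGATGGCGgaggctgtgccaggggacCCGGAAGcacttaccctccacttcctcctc
NDUFA9: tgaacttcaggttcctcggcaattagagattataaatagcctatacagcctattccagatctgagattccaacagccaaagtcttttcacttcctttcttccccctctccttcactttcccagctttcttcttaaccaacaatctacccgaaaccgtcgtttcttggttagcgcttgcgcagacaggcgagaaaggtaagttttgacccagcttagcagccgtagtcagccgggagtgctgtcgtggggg
In ATP5PD the capitals are an ETS match (CTTCCGG), beginning 101 bases before the start, and a CCAAT box on the opposite strand, beginning 77 bases before it. SDHD holds an NRF1 match on both strands, which overlap in a palindrome, and an ETS match that begins 77 bases before the start. ATP5PF holds matches of 4 kinds, to CCAAT, NRF1, YY1 and ETS, beginning 240, 120, 57 and 30 bases before the start. NDUFA9 has no match to the motifs searched in the stretch printed, and a YY1 match (AAGATGGCG) that begins 10 bases after the start.
Promoter windows, from 250 bases before to 50 bases after the start, were found for 50 of the 60 protein-coding members, and not for ATP5F1D, ATP5MC3, ATP5MGL, COX6C, COX7A1, CYC1, NDUFB5, NDUFB9, NDUFC2 and SDHC. The motifs were searched on both strands as GCATGCGC for NRF1, CCGGAAG for ETS, AANATGGCG for YY1, CCAAT for the CCAAT box, TGTTTAC for forkhead factors, the class of FOXM1, and TTTGAA for the CHR element of cell cycle genes. An NRF1 match lay in 9 subunit promoters (18.0%), against 4.22% of 11385 measured genes and 3.27% of all 27305 promoters in the table. The values for YY1 were 11 subunit promoters (22.0%), 5.13% and 3.37%, and for ETS 11 (22.0%), 14.5% and 10.7%. At least 1 of these 3 was present in 23 of the 50 (46.0%), against 21.5% of measured genes. CCAAT was about as frequent in the subunit promoters (38.0%) as in measured genes (36.5%). The forkhead letters were in 0 of the 50 windows, against 2.47% of measured genes and 3.41% of all promoters. The paper gives a broader motif for FOXM1, RYAAAYA, where R is A or G and Y is C or T. That broader motif was not searched, so its presence in these windows is not known from this count. The CHR letters were in 3 windows (6%), against 11.7% and 15.4%. The median log2 difference after FOXM1 silencing was 0.14 for the 11 genes with an ETS match, ATP5PD among them, and 0.00 for the others. It was 0.09 and 0.01 with and without an NRF1 match, and 0.01 and 0.02 with and without a YY1 match. With and without a CCAAT box it was 0.09 and 0.00. A match describes letters only, and its part in the expression values was not tested.

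**Figure D3:**
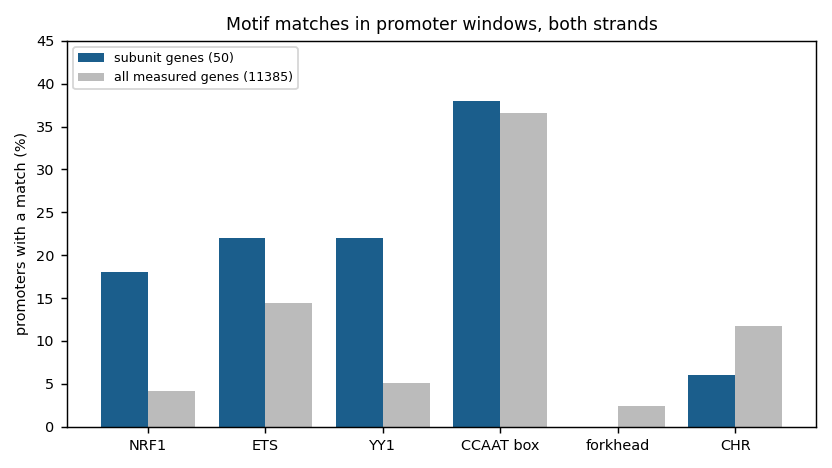
Percentage of promoter windows that hold each motif on either strand, for 50 subunit genes and 11385 measured genes. NRF1 (18.0% against 4.22%) and YY1 (22.0% against 5.13%) were more frequent in the subunit promoters. The forkhead letters searched (TGTTTAC) had no match in them.

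Complex I, NADH dehydrogenase, had a median difference of 0.01 over 26 genes, from -0.31 in NDUFA9 to 0.21 in NDUFA11. The core subunits carry the flavin and most iron-sulfur clusters of the enzyme, and 4 were measured. NDUFV1, which binds NADH and the flavin, had values of 10.46 and 10.00 in TE-1-siFOXM1 cells and 10.64 and 9.97 in TE-1-SCR cells (difference -0.07, 95% interval -0.82 to 0.68). The SCR arrays enclosed both siFOXM1 arrays. The other core genes, NDUFS3, NDUFS7 and NDUFS8, had differences of 0.04, -0.06 and 0.11. Among the 22 accessory genes, NDUFA11 (8.56 and 8.32 against 8.37 and 8.08) and NDUFA1 (9.04 and 8.44 against 9.03 and 8.15) had the largest increases, 0.21 and 0.15. In both genes the higher SCR array lay above the lower siFOXM1 array. After NDUFA9, the largest decrease was in NDUFB5, which belongs to the membrane arm (10.32 and 9.97 against 10.51 and 10.00, difference -0.11). Another 7 subunit genes of complex I had probe sets shared with other symbols, and NDUFV2 and NDUFB4 were not analysed here.
Complex II, succinate dehydrogenase, is also an enzyme of the TCA cycle. SDHA, its flavoprotein, had values of 12.28 and 12.29 in TE-1-siFOXM1 cells and of 12.44 and 12.30 in TE-1-SCR cells. The groups did not overlap, but the difference was small (-0.08, 95% interval -0.44 to 0.28) and within the range of all subunit genes. SDHC, which pairs with SDHD in the membrane, had values of 10.01 and 9.85 against 10.06 and 9.89 (difference -0.04), so that the 2 anchor genes differed in their values, -0.04 and 0.56. SDHB, the iron-sulfur subunit, was not analysed here.
Complex III, the cytochrome bc1 complex, had the narrowest range, from -0.05 to 0.10, and a median of 0.01 over 6 genes. CYC1, cytochrome c1, which hands electrons to cytochrome c, had values of 10.88 and 10.51 against 11.02 and 10.43 (difference -0.03, 95% interval -0.70 to 0.65). The core proteins UQCRC1 and UQCRC2 had differences of -0.05 and 0.09, and the small subunit UQCRQ one of 0.10. For all of them the replicates of 1 group lay further apart than the group means. UQCRFS1, the Rieske iron-sulfur protein, was not analysed here.

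Complex IV, cytochrome c oxidase, had a median of 0.05 over 12 genes. Several of its subunits exist as a general isoform and as an isoform of heart and muscle or testis. COX6A2, the heart and muscle isoform of subunit 6A, had values of 8.07 and 8.43 in TE-1-siFOXM1 cells and of 7.82 and 7.94 in TE-1-SCR cells (difference 0.37, 1.29-fold, 95% interval -0.10 to 0.84, adjusted p = 1 from limma). The groups did not overlap, and its difference was the largest of this complex. The general isoform COX6A1 was not analysed here.
The general isoforms COX7B and COX8A followed, with differences of 0.25 and 0.24. COX7B read 10.62 and 9.65 against 10.24 and 9.53, and COX8A read 11.94 and 11.49 against 11.81 and 11.14. In both genes the arrays numbered 1 were the high ones in each group. Their counterparts COX7B2 and COX8C, known from testis, had differences of 0.05 and 0.15. COX7A2 had the largest decrease, -0.14 (10.11 and 9.32 against 10.31 and 9.41), its muscle counterpart COX7A1 had -0.03, and a weaker probe set of COX7A2 had -0.13. COX6B1 and its testis counterpart COX6B2 had 0.14 and -0.05. COX5A and COX5B, which have no such pairs here, had -0.02 and 0.01 with 95% intervals of -0.47 to 0.43 and -0.34 to 0.36.
Complex V had the highest median, 0.11 over 13 genes, with differences above 0 in 8 of them. This median was -0.17 without siFOXM1 replicate 1 and -0.19 without SCR replicate 2, where that of complex IV was higher (0.02 and -0.07). In the F1 head, ATP5F1A, the alpha subunit, had values of 10.25 and 9.76 against 10.19 and 9.59 (difference 0.11, 95% interval -0.61 to 0.84). ATP5F1C and ATP5F1D, which belong to the central stalk, had differences of -0.01 and 0.13. ATP5MC1, ATP5MC2 and ATP5MC3 encode the same mature c-ring subunit with different import sequences, and their differences were 0.10, 0.12 and -0.07. ATP5MC2 read 8.84 and 8.42 against 8.42 and 8.60, which leaves its arrays interleaved. ATP5MJ, a small membrane subunit, had the largest increase after ATP5PD, 0.28 (9.46 and 8.45 against 9.08 and 8.28), and it was 0.78 without siFOXM1 replicate 2 and -0.23 without siFOXM1 replicate 1. ATP5IF1, the inhibitor that blocks ATP hydrolysis when the membrane potential collapses, had the largest decrease, -0.14 (8.09 and 7.68 against 8.24 and 7.82), followed by the stalk subunit ATP5PO with -0.11. ATP5F1B and 4 other subunit genes had probe sets shared with other symbols.
Over all complexes, 26 probe sets carried a subunit symbol together with another gene's symbol. None of them was 1.5-fold apart, with differences from -0.25 to 0.32 and a median of -0.02.

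Replicates differed more in the median subunit gene than in the median named gene, and in the same direction in both groups. Replicate 1 exceeded replicate 2 by a median of 0.32 in TE-1-siFOXM1 cells and of 0.42 in TE-1-SCR cells, against 0.08 and 0.14 over all named genes. In both groups replicate 1 was the higher array for 47 of the 61 genes (77.0%), against 53.3% of all named genes. The share was not particular to the subunit genes: it was 33 of 37 for the assembly factors (89.2%), 10 of 11 for enzymes of the TCA cycle (90.9%), 9 of 9 for regulators of mitochondrial gene expression and 4 of 4 for ATP and ADP transport. Most subunit genes reach the overall median level, and among genes that do, this share was 66.4% of named genes and 88.0% of 50 subunit genes. When the arrays were quantile-normalized again, the medians were 0.21 and 0.24, against 0.00 and 0.03 over all named genes. The median difference between the groups was small beside this spread, and no source says what the replicate number stands for, so its part in these values was not tested.
COX7A2 (0.79 in TE-1-siFOXM1 and 0.90 in TE-1-SCR), ATP5MJ (1.01 and 0.80), COX7B (0.97 and 0.70) and NDUFS3 (0.77 and 0.81) had the largest such differences, summed over both groups. Replicate 1 was higher in both groups for 6 of 6 genes of complex III and for 7 of 7 general isoforms of complex IV. Among the isoforms of complex IV for heart, muscle or testis, replicate 1 was the lower array in all 5 in TE-1-siFOXM1 cells and the higher array in 3 of 5 in TE-1-SCR cells. The largest differences in TE-1-siFOXM1 cells were those of COX7B2 (-0.63), COX8C (-0.40) and COX6A2 (-0.36). Of these 5, only COX6A2 reached the overall median level.
This spread set the precision. The median standard error of the difference was 0.22 in the subunit genes and 0.16 in all named genes. The 95% interval lay within 1.5-fold in both directions for 19 of 61 subunit genes (31.1%), against 60.9% of named genes. This count depended on the processing and on the arrays. It was 32 (52.5%, against 70.7% of named genes) after quantile normalization. Leaving out any single array made such intervals fewer, in the subunit genes and in all named genes alike. Among the 19 were SDHA, SDHC, COX5A, COX5B, NDUFB9, UQCR10 and UQCR11. For the other 42 genes, with all arrays as deposited and no block in the model, the interval reached past 1.5-fold in at least 1 direction. With the replicate number as a block, 50 of the 61 intervals lay within 1.5-fold (82.0%), against 83.1% of named genes.

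**Figure D4:**
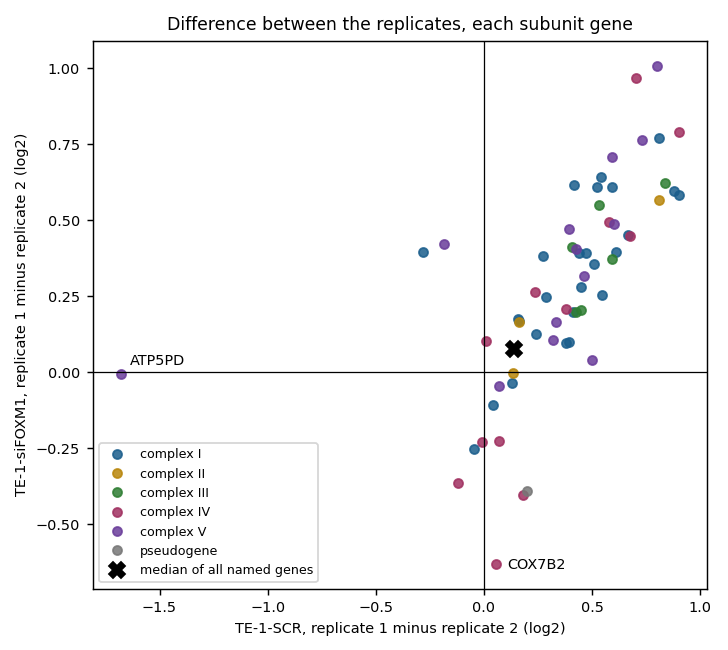
Difference between replicate 1 and replicate 2 in TE-1-SCR cells (horizontal) and TE-1-siFOXM1 cells (vertical) for each of the 61 subunit genes, on the log2 scale, with the median of all named genes as a cross. Most genes lie above 0 on both axes (47 of 61), ATP5PD lies apart at -1.68 in TE-1-SCR cells, and COX7B2 is the lowest in TE-1-siFOXM1 cells (-0.63).

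Factors that assemble the complexes had no significant difference either. Of 49 listed assembly factors, 37 were measured, with a median difference of 0.03. At least 1.5-fold higher was 1 gene and none was lower, against 0.562% and 0.45% of all named genes. This gene was NDUFAF2, a chaperone of complex I that the study lists too. It had values of 4.33 and 2.65 in TE-1-siFOXM1 cells and 2.56 and 2.46 in TE-1-SCR cells, far under the overall median level. siFOXM1 replicate 1 stood apart, and the difference was 0.98 (limma, standard error 0.56, adjusted p = 1). It was 0.14 without it. COX15, which makes heme A for complex IV, followed with 0.31. TTC19, which takes part in the maturation of complex III, had the largest decrease, -0.33, with 9.29 and 9.42 against 9.66 and 9.69. Its groups did not overlap, as was so in this direction for 13.8% of all named genes. NDUFAF1 came next with -0.27, and 0.17 without SCR replicate 1.
SLC25A4, the ADP/ATP carrier of heart and muscle, was the 1 gene of these lists at least 1.5-fold lower, among 4 of 7 measured genes of ATP and ADP transport. Of all named genes, 0.45% were at least 1.5-fold lower. The values of SLC25A4 were 8.36 and 8.21 in TE-1-siFOXM1 cells and 9.14 and 8.64 in TE-1-SCR cells. Both siFOXM1 arrays were below both SCR arrays, as in 13.8% of all named genes. The difference was -0.60 (1.52-fold, standard error 0.21, adjusted p = 1 and unadjusted p = 0.0374 from limma). It was -0.35 without SCR replicate 1 and -0.53 without siFOXM1 replicate 2, both short of 1.5-fold. With all arrays, 1.83% of all named genes had an unadjusted p under 0.05 from limma. VDAC3, a channel of the outer membrane, had a difference of 0.00.
Of 14 enzymes and subunits of the TCA cycle, 11 were measured, with a median of -0.01, and none was 1.5-fold apart. SUCLA2, the ATP-forming subunit of succinyl-CoA ligase, had the largest increase, 0.34 (8.53 and 8.10 against 8.05 and 7.90), and OGDH the largest decrease, -0.12. Among 9 measured of 13 regulators of mitochondrial gene expression, TFAM, which packages and transcribes mitochondrial DNA, had a difference of 0.19, and PPARGC1A, a coactivator of mitochondrial biogenesis, one of -0.16. None was 1.5-fold apart, and their median was 0.12. No gene of these lists passed limma after adjustment over all probe sets.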

How the data were processed

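RNA of 2 TE-1-siFOXM1 and 2 TE-1-SCR samples was hybridized to Affymetrix arrays, and samples were grouped by title. Values deposited by the authors are log2 signals after RMA (robust multi-array average) in Affymetrix Expression Console, with a value for each probe set in each array. The processing notes name the build hg18, and versions are not given in the sources used here. Which arrays were normalized together is not stated either. RMA includes a step that equalizes arrays, so a shift shared by all genes may not be seen. The deposited arrays were not fully equal. The upper quartile of all probe sets was 9.10 in siFOXM1 replicate 1 and 9.12 in SCR replicate 1. It was 8.95 in siFOXM1 replicate 2 and 8.93 in SCR replicate 2.
Gene symbols came from the annotation of the platform: 14432 of 22011 probe sets carried 1 symbol, 2408 several and 5171 none. Of the first, 14404 matched a table of current genes (GRCh38), and 0 symbols had to be updated. Where a gene had several of these, the brightest on average was used. Promoter sequences are from RefSeq (GRCh38.p14).
All probe sets entered the limma test (version 3.58.1, R 4.3.3, 4.87 degrees of freedom), without the replicate number in the model and with Benjamini-Hochberg adjustment. The number of arrays limits the precision. The test was first run on simulated data for 22011 probe sets. An adjusted p of 0.05 was passed there by 39 of 100 probe sets changed by 1 on the log2 scale. Of 100 changed by 2, 97 passed. These shares were not shown to hold for the deposited arrays. In those no probe set reached that mark, the silenced gene included (log2 change -1.98, unadjusted p = 0.00126 from limma).
The members and gene lists were chosen with earlier results of these data known. Named genes are FOXM1, subunit genes 1.5-fold apart, the 2 largest increases and decreases in each complex, core subunits, isoform sets, ATP5PD and NDUFAF2 (which the study lists), the 2 largest increases and decreases among assembly factors, and the extremes of the other lists. Others were named after their values were seen: genes without overlap, the remaining core subunits, those with the largest differences between replicates, and examples of narrow intervals.
Alternatives were the replicate number as a block, centred or quantile-normalized arrays, a filter at the overall median level, limma with trended and robust variances, averaging of a gene's probe sets, a ratio of linear means, the members without the pseudogene, and leaving out each array. With 1 array left in a group, its spread was assumed to equal that of the other group.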

Additional observations from a re-analysis of the deposited data

How the results depend on the processing

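No subunit gene, and no probe set, passed limma at an adjusted p of 0.05 under any alternative run. With the replicate number as a block, 2 of 61 subunit genes (SDHD and COX6A2) had an unadjusted p under 0.05 from limma. Of the 22011 probe sets, 1576 reached that mark in the same fit. Genes at least 1.5-fold higher numbered 0 when linear means were compared, where ATP5PD had a log2 ratio of 0.56, and 1 to 4 when single arrays were left out. Those at least 1.5-fold lower numbered 0 to 1. The difference of ATP5PD ranged from -0.0482 without SCR replicate 1 to 1.63 without SCR replicate 2. With all 4 arrays and log2 means, the counts of subunit genes past 1.5-fold were unchanged under the alternatives. All medians stayed within 1 SD of the replicates, but that SD was large beside them (0.34 for complex I). Their signs changed with the array left out. The median of complex I was -0.20 without SCR replicate 2 and 0.20 without SCR replicate 1. For complex III these values were -0.27 and 0.25.
The number of subunit genes with a 95% interval within 1.5-fold was 19. This count and its alternatives were chosen after seeing the data. It was 32 with quantile normalization, where 70.7% of named genes had such an interval, and 0 to 8 when single arrays were left out. With the replicate block it was 50, or 82.0%, against 83.1% of named genes, and the median standard error was 0.11 in both. The arrays share only a number, and no source says that it marks a batch. The deviations of same-numbered arrays from their group means had a correlation of 0.61 over the 61 subunit genes, or 0.74 without ATP5PD. It was 0.47 over all named genes and 0.34 over all probe sets. The median group difference of the subunit genes was -0.01 between the arrays numbered 1 and 0.08 between those numbered 2.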
